A study of Mus musculus with 12 samples.

Results

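The genes described here are 7 subunits of the GABA-A receptor (Gabra2, Gabra3, Gabra4, Gabra5, Gabrb1, Gabrb2 and Gabrd), taken from the deposited count table by their symbols. The table held 24421 genes, and all 7 of these passed the filter on low counts that left 13065 genes for testing. Hippocampal tissue came from mice 2 months of age, all of which had received BrdU, a thymidine analogue that is built into the DNA of dividing cells. RNA was profiled by 3′ mRNA sequencing from 4 genotypes, with 3 libraries for each. These were wild type mice (WT), 5xFAD mice, p75NTRko mice and their cross, 5xFAD/p75NTRko. 5xFAD mice carry human transgenes, mutated as in familial Alzheimer's disease and driven by the neuronal Thy1 promoter. In p75NTRko mice the gene Ngfr, which encodes the neurotrophin receptor p75, is meant to be knocked out. The series title asks how that receptor shapes adult hippocampal neurogenesis in the disease model. The titles number the libraries as biological replicates, without saying how many animals gave each.

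GABA-A receptors are pentameric chloride channels that open when GABA, the main inhibitory transmitter of the forebrain, binds between an alpha and a beta subunit. Most receptors at synapses join alpha and beta subunits to a gamma subunit, which ties them to the scaffold protein gephyrin and gives fast, brief inhibition. Receptors with alpha 5, or with alpha 4 and delta, lie largely outside synapses and carry the tonic inhibition that low ambient GABA evokes, the former mainly in pyramidal cells of the hippocampus and the latter in granule cells of the dentate gyrus and in thalamic relay cells. In adult neurogenesis, newborn granule cells respond to GABA before they receive glutamatergic synapses.

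Libraries held 4316739 to 6683613 gene-assigned counts, at which 3 counts, the limit of measurement used here, correspond to 0.446 to 0.690 CPM (counts scaled to a common library size). Each of the 10 hippocampal excitatory neuron markers, such as Prox1 and Wfs1, was above 0 in all 12 libraries. Thy1, whose promoter drives the transgenes, was at 1596 to 4019 CPM in the 6 libraries labelled as carriers and at 688 to 940 CPM in the others. Ngfr went against its label: it was at 5.95 to 10.5 CPM in the 6 libraries labelled p75NTRko or 5xFAD/p75NTRko and at 0.166 to 1.95 CPM in the 6 others. 3′ reads outside the deleted part could still be counted from a mutant transcript, so this level does not check the deletion. Why Ngfr was higher in these 6 libraries than in the others was not tested. The p75NTRko and 5xFAD/p75NTRko genotypes are called labelled throughout. Xist, the transcript of the inactive X chromosome, was low in all 3 5xFAD libraries and in p75NTRko-labelled replicates 2 and 3. It was high in the other 7 libraries, so that 5xFAD and WT differed fully in this respect. Only the p75NTRko-labelled group held both classes, so a term for the Xist class rests on its replicate 1 against replicates 2 and 3.

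WT replicate 1, WT replicate 2 and 5xFAD/p75NTRko-labelled replicate 3 stood apart from the others in tissue markers. The summed level of 8 markers of neocortex and subiculum (among them Tbr1, Fezf2, Foxp2, Rspo1, Cux2, Tshz2 and Fn1) was 451, 343 and 433 CPM in them, against 202 to 303 CPM in the other 9 libraries. Tbr1, a transcription factor of deep-layer neurons, was at 222, 140 and 228 CPM in these 3 and at 72.9 to 113 CPM in the rest. Not every marker of the list followed this order. Fezf2 was lower in each WT library than in every library of the other genotypes. Tshz2 was lower in each WT library than in every 5xFAD library. Fn1 was lower in 5xFAD/p75NTRko-labelled replicate 3 than in every WT library. The 3 libraries with the highest neocortex and subiculum sums had the lowest sums of the 10 hippocampal markers, at 685, 793 and 834 CPM against 965 to 1243 CPM. They were the lowest 3 for Prox1, C1ql2, Dsp, Spink8, Zbtb20 and Neurod2 but not for the other 4 markers of that list: Cnih3 was at 64.1, 72.1 and 72.8 CPM in them against 39.7 to 67.2 CPM in the rest, and Wfs1 was highest of all in 5xFAD/p75NTRko-labelled replicate 3. None of the 8 neocortex and subiculum markers was at 0 in any library. Because 2 of the 3 WT libraries are among these, differences are given below both with all libraries and, where described in detail, with these 3 left out. That second fit, chosen after the data were seen, leaves WT with 1 library, which is assumed to vary like the other genotypes.

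The genes lie in the clusters in which vertebrate GABA-A subunit genes are grouped (coordinates from the GENCODE annotation of GRCm38, which the submitters' processing notes name as mm10). Gabra2 (chr5:70957597-71095849) and Gabra4 (chr5:71569749-71658308) run along the minus strand of chromosome 5, and Gabrb1 (chr5:71658113-72149037) follows on the plus strand. Gabra4 and Gabrb1 start head to head, with 196 shared bases. Gabra5 (chr7:57407672-57510059, minus strand) lies 20.5 kb from Gabrg3 and shares 2270 bases with the antisense transcript Gm9962. Gabrb2 (chr11:42419757-42629028, plus strand) lies 98.7 kb from Gabra6, while Gabrd (chr4:155384980-155398112, minus strand) has no subunit gene near it. Gabra3 (chrX:72432681-72656848, minus strand) is X-linked, with Gabre 157.9 kb and Gabrq 168.3 kb away. Whether the authors' counting used the strand is not given in the sources used here, so reads in the shared stretches cannot be assigned with certainty; no exon of a neighbour overlaps the annotated 3′ untranslated region of any of the 7, where 3′ reads fall.

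Gabra3 and Gabra5 had the most negative correlation of any pair of the 4 alpha subunits across libraries, before genotype means were subtracted. The 250 bases before their starts differ in make-up, and a link of this to the correlation was not tested. The sequences are RefSeq's for GRCm38.p6, 5′ to 3′ on the gene's strand, and capitals mark each CpG dinucleotide.
Gabra3 (chrX:72656920-72657169, minus strand): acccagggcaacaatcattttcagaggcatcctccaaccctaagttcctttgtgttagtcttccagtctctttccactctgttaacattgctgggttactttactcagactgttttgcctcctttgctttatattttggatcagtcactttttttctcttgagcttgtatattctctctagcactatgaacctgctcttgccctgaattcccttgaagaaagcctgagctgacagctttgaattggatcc
Gabra5 (chr7:57510060-57510309, minus strand): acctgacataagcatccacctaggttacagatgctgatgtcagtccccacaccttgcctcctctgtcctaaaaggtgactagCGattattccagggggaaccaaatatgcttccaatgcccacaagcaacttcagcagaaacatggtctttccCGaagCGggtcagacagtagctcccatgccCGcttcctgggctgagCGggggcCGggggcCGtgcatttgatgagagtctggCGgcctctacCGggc
The printed Gabra3 window held 0 CpG and 42.4% G and C, and the Gabra5 window 9 CpG and 56.4%. It precedes a RefSeq start of Gabra3 at 72656919, upstream of the GENCODE start at 72656848. The window of another RefSeq start of Gabra3 (chrX:72656808-72657057) held 0 CpG and 39.2% G and C. Of 32851 RefSeq promoter windows of this length, 7.87% had no CpG, and the medians were 6 CpG and 52.4% G and C. The letters TATAAA, searched on both strands, were found in 12.37% of windows. They occurred 1 time in the printed Gabra3 window and 0 times in that of Gabra5. GGGCGG (32.74% of windows) and TGACGTCA (1.55%) occurred in neither. Of the 7 genes, 6 had an entry; the windows of Gabra2 and the farther upstream one of Gabrb1 held 18 CpG each.

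Among the 7 genes the most abundant was Gabrb2, a beta subunit found in much of the forebrain, at a mean of 462 CPM over the 12 libraries. A 3′ count carries no gene-length term, so levels of different genes are set side by side in CPM. Such levels count only reads inside annotated features, and 28.9% to 33.5% of each library's reads lay outside any. Whether this share differs between the subunit genes was not tested, which limits their order. Its range of 386 to 523 CPM lay above that of Gabra3 (119 to 281 CPM, mean 171 CPM), the next in order. Gabra5 (111 CPM), Gabrb1 (107 CPM) and Gabra4 (102 CPM) formed a further group with overlapping ranges: Gabra5 was above Gabrb1 in 6 of 12 libraries, and Gabrb1 above Gabra4 in 8. The ranges of Gabra3 and Gabra5 overlapped as well. Each of these was above Gabrg1, a gamma subunit found in few forebrain cells (40.4 CPM), and the ranges of Gabra4 and Gabrg1 did not overlap. The lowest were Gabrd, at 14.1 CPM, and Gabra2, at 13.2 CPM, the former above the latter in 5 of 12 libraries. A further 8 subunit genes (Gabra6, Gabrg3, Gabre, Gabrp, Gabrq, Gabrr1, Gabrr2 and Gabrr3) had 0 to 11 counts in each library and did not pass the filter.

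**Figure D1:**
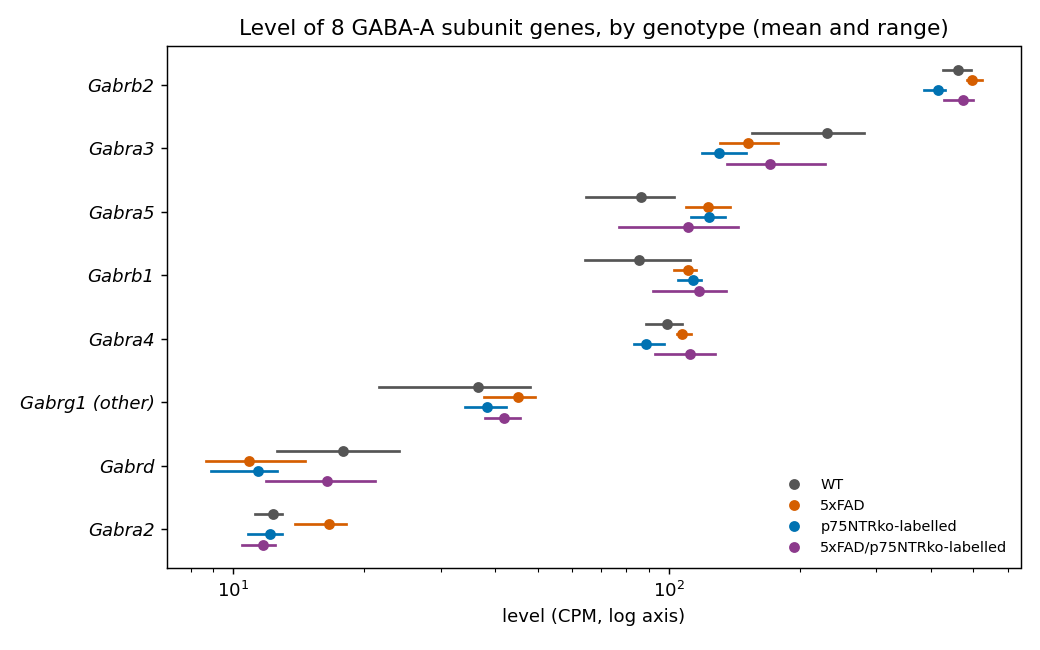
Level in CPM, on a log axis, of the 7 genes and Gabrg1 in each genotype, with points for the mean of 3 libraries and bars for their lowest to highest value. Gabrb2 leads with a mean of 462 CPM over all libraries, and Gabrd and Gabra2 lie lowest at 14.1 and 13.2 CPM.

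The balance of the alpha 5 and alpha 3 subunits differed between libraries. The ratio of Gabra5 to Gabra3 counts was 0.251, 0.324 and 0.663 in WT replicates 1, 2 and 3, 0.336 in 5xFAD/p75NTRko-labelled replicate 3, and 0.616 to 1.11 in the other 8 libraries. Gabra3 had the higher count wherever this ratio was below 1, which includes every WT library.

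None of the 7 genes passed the threshold in any comparison by the quasi-likelihood test of edgeR, adjusted by Benjamini-Hochberg over all 13065 genes and a threshold of 0.05. In 5xFAD against WT 0 of 7 were called, where 0.0536% of all genes were; 5 had an unadjusted p under 0.05, against 13.9% of all genes. In p75NTRko-labelled against WT 0 of 7 were called (0.00% of all genes), and 4 had an unadjusted p under 0.05, against 11.5% of all genes. In 5xFAD/p75NTRko-labelled against 5xFAD 0 of 7 were called (0.0383%), and 2 had an unadjusted p under 0.05 (5.08% of all genes). In 5xFAD/p75NTRko-labelled against p75NTRko-labelled libraries 0 were called (0.00%), with 1 under 0.05 unadjusted (6.59%), and against WT 0 were called (0.00%), with 1 under 0.05 (9.95%). In the interaction, which asks whether the transgene's difference depends on the receptor label, 0 of 7 were called (0.0383%) and 4 had an unadjusted p under 0.05 (9.32%). For any difference between the 4 genotypes 0 of 7 were called (0.0995%) and 3 had an unadjusted p under 0.05 (10.4%). With DESeq2 the counts past the adjusted threshold were 0 except for p75NTRko-labelled against WT, where it was 1, Gabra3. The comparisons share libraries and are not independent of each other. The 7 genes were chosen with earlier results of these data known, so their counts beside the shares of all genes are descriptions only. The median log2 fold change of the 7 was 0.12 in 5xFAD against WT and -0.15 in p75NTRko-labelled against WT, where the medians over all genes were -0.0036 and -0.00063.

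**Figure D2:**
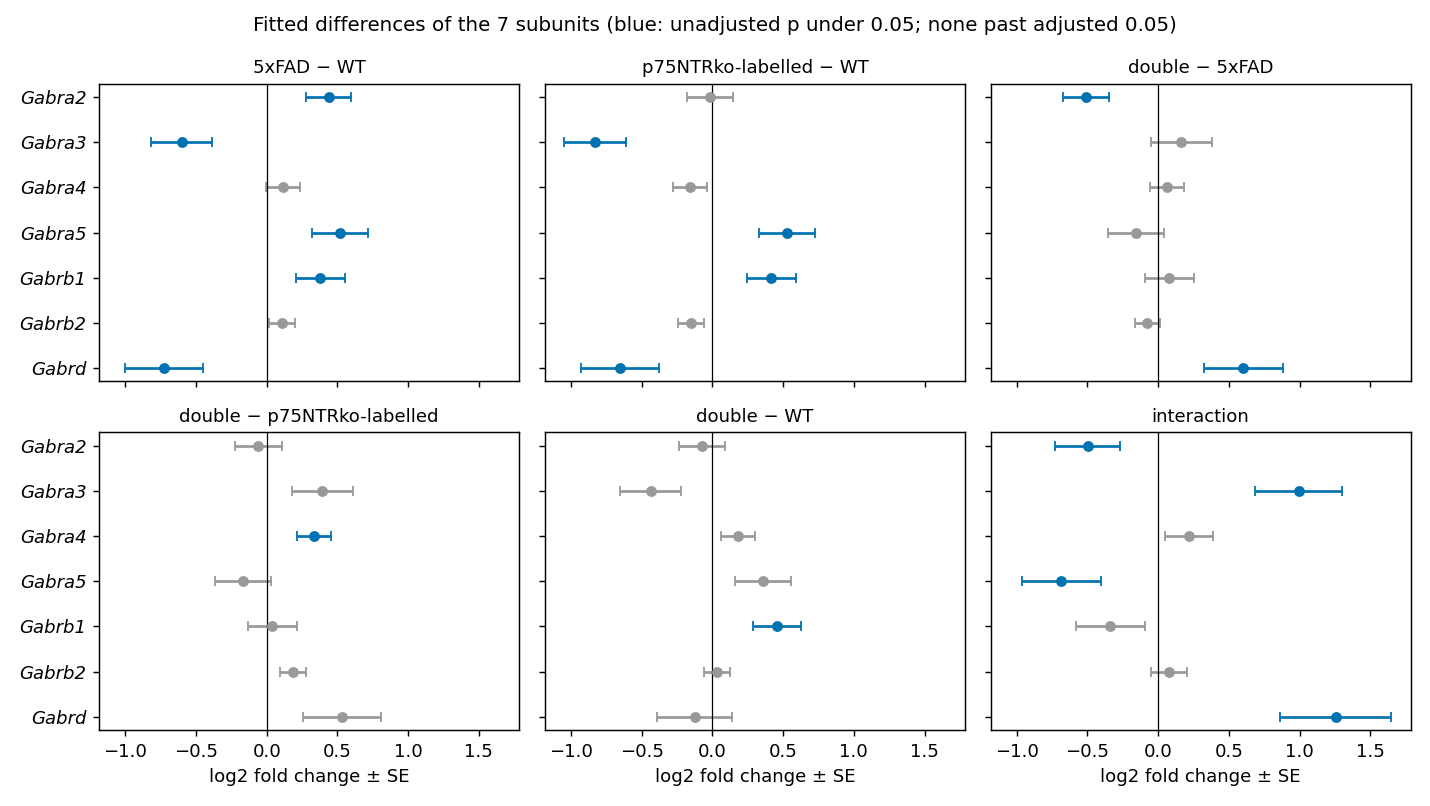
Log2 fold change of each of the 7 genes with its standard error (horizontal bars) in 5 comparisons of genotypes and the interaction, where "double" stands for the 5xFAD/p75NTRko-labelled group and blue marks an unadjusted p under 0.05. The points farthest from 0 are the interaction values of Gabrd (1.26) and Gabra3 (0.995), and none passed the adjusted threshold.

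Gabra3, the alpha 3 subunit, is found at synapses of cortical and brainstem neurons. Its level was 257, 281 and 155 CPM in WT replicates 1, 2 and 3, 148, 178 and 131 CPM in 5xFAD, then 119, 151 and 121 CPM in the p75NTRko-labelled group and 147, 136 and 229 CPM in the 5xFAD/p75NTRko-labelled group. The high values were those of WT replicates 1 and 2 and 5xFAD/p75NTRko-labelled replicate 3, the libraries with high neocortex and subiculum markers; the other 9 lay between 119 and 178 CPM. Every p75NTRko-labelled library was below every WT library, with 151 CPM as the highest of the former and 155 CPM as the lowest of the latter; 8.50% of all genes were lower in this way. The log2 fold change in p75NTRko-labelled against WT was -0.83 (SE 0.218), with an unadjusted p of 0.00179 and an adjusted p of 0.251 by the quasi-likelihood test of edgeR (Benjamini-Hochberg). By DESeq2 the same difference had an adjusted p of 0.0432. Leaving out WT replicate 3 gave -1.05 with an adjusted p of 0.0400 by edgeR's test. Over all genes, where edgeR called 0 with all libraries, DESeq2 called 55, and edgeR called 26 without WT replicate 3. Without the 3 libraries of highest neocortex and subiculum markers it was -0.26 (SE 0.156, adjusted p 0.835 by the same test). In 5xFAD against WT the log2 fold change was -0.60 (SE 0.217, adjusted p 0.280, edgeR) and -0.025 without those 3. For the interaction, edgeR gave 0.995 (SE 0.308, adjusted p 0.379) with all libraries and 0.15 (SE 0.201) without the 3. Gabra3 is X-linked; within the p75NTRko-labelled group, the library with high Xist had 119 CPM and the 2 with low Xist 151 and 121 CPM.

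Gabra5, the alpha 5 subunit of tonic inhibition in pyramidal cells, ran the other way. It was at 64.6, 91.0 and 103 CPM in WT, 122, 109.5 and 139 CPM in 5xFAD, then 113, 125 and 135 CPM in the p75NTRko-labelled group and 111, 144 and 76.7 CPM in the 5xFAD/p75NTRko-labelled group. Here the same 3 libraries were the lowest of the 12, at 64.6 to 91.0 CPM against 103 to 144 CPM. All 5xFAD libraries lay above all WT libraries, as for 10.5% of all genes, and all p75NTRko-labelled libraries lay above WT, as for 7.93%. The log2 fold change was 0.52 (SE 0.198, adjusted p 0.304) in the former and 0.53 (SE 0.198, adjusted p 0.368) in the latter comparison by the quasi-likelihood test of edgeR (Benjamini-Hochberg). Without the 3 libraries these were 0.26 (SE 0.159) and 0.27 (SE 0.159). Its interaction value was -0.68 (SE 0.279, adjusted p 0.495, edgeR), or -0.22 without the 3 libraries. With the Xist class as a term, the values in 5xFAD against WT and for the interaction were 0.32 and -0.34. Transcripts from the other strand overlap part of Gabra5, which limits this value if the counting did not use the strand.

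Gabra2, the alpha 2 subunit, is concentrated at axon initial segments and synapses of principal cells. It was at 11.2, 13.0 and 12.8 CPM in WT, 18.2, 17.8 and 13.9 CPM in 5xFAD, then 13.0, 10.8 and 12.6 CPM in the p75NTRko-labelled group and 12.2, 12.5 and 10.5 CPM in the 5xFAD/p75NTRko-labelled group, from 47 to 107 counts a library. The 3 highest libraries were those of 5xFAD, and the other genotypes overlapped one another at 10.5 to 13.0 CPM. The 3 libraries with high neocortex and subiculum markers, at 10.5 to 13.0 CPM, overlapped the other 9, at 10.8 to 18.2 CPM, and 5xFAD/p75NTRko-labelled replicate 3 was the lowest of all 12. In 5xFAD against WT the log2 fold change was 0.44 (SE 0.160, unadjusted p 0.0155, adjusted p 0.280) by the quasi-likelihood test of edgeR (Benjamini-Hochberg). The 5xFAD/p75NTRko-labelled libraries all lay below those of 5xFAD, as for 6.02% of all genes, by a log2 fold change of -0.51 (SE 0.162, unadjusted p 0.00660, adjusted p 0.692, edgeR). Without the 3 libraries these differences were 0.39 (SE 0.232) and -0.44 (SE 0.185). Xist was low in every 5xFAD library and high in every WT and 5xFAD/p75NTRko-labelled library; with the Xist class as a term in the fit they were 0.57 and -0.65, with unadjusted p of 0.0783 and 0.0508 by edgeR's test. For the interaction the value was -0.50 (SE 0.230, adjusted p 0.530, edgeR), and -0.37 (SE 0.299) without the 3 libraries.

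Gabra4, the alpha 4 subunit that joins delta in dentate granule cells, ranged from 83.2 to 128 CPM. Levels were 100.6, 88.9 and 107 CPM in WT, 104, 105 and 113 CPM in 5xFAD, then 84.7, 83.2 and 97.7 CPM in the p75NTRko-labelled group and 128, 115 and 92.8 CPM in the 5xFAD/p75NTRko-labelled group. The lowest 2 libraries were p75NTRko-labelled and the highest 2 5xFAD/p75NTRko-labelled, and these genotypes overlapped through 97.7 and 92.8 CPM. Between them the log2 fold change was 0.34 (SE 0.120, unadjusted p 0.0134, adjusted p 0.711) by the quasi-likelihood test of edgeR (Benjamini-Hochberg). Leaving out the 3 libraries gave 0.45 (SE 0.0961, unadjusted p 0.000296, adjusted p 0.108, edgeR), so this difference was larger without them, unlike those of Gabra3 and Gabra5. Differences from WT were 0.12 for 5xFAD, -0.16 for the p75NTRko label and 0.18 for both, with SE of 0.119 to 0.120. With the 3 libraries left out they were 0.0017, -0.27 and 0.18, with SE of 0.121 to 0.129.

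**Figure D3:**
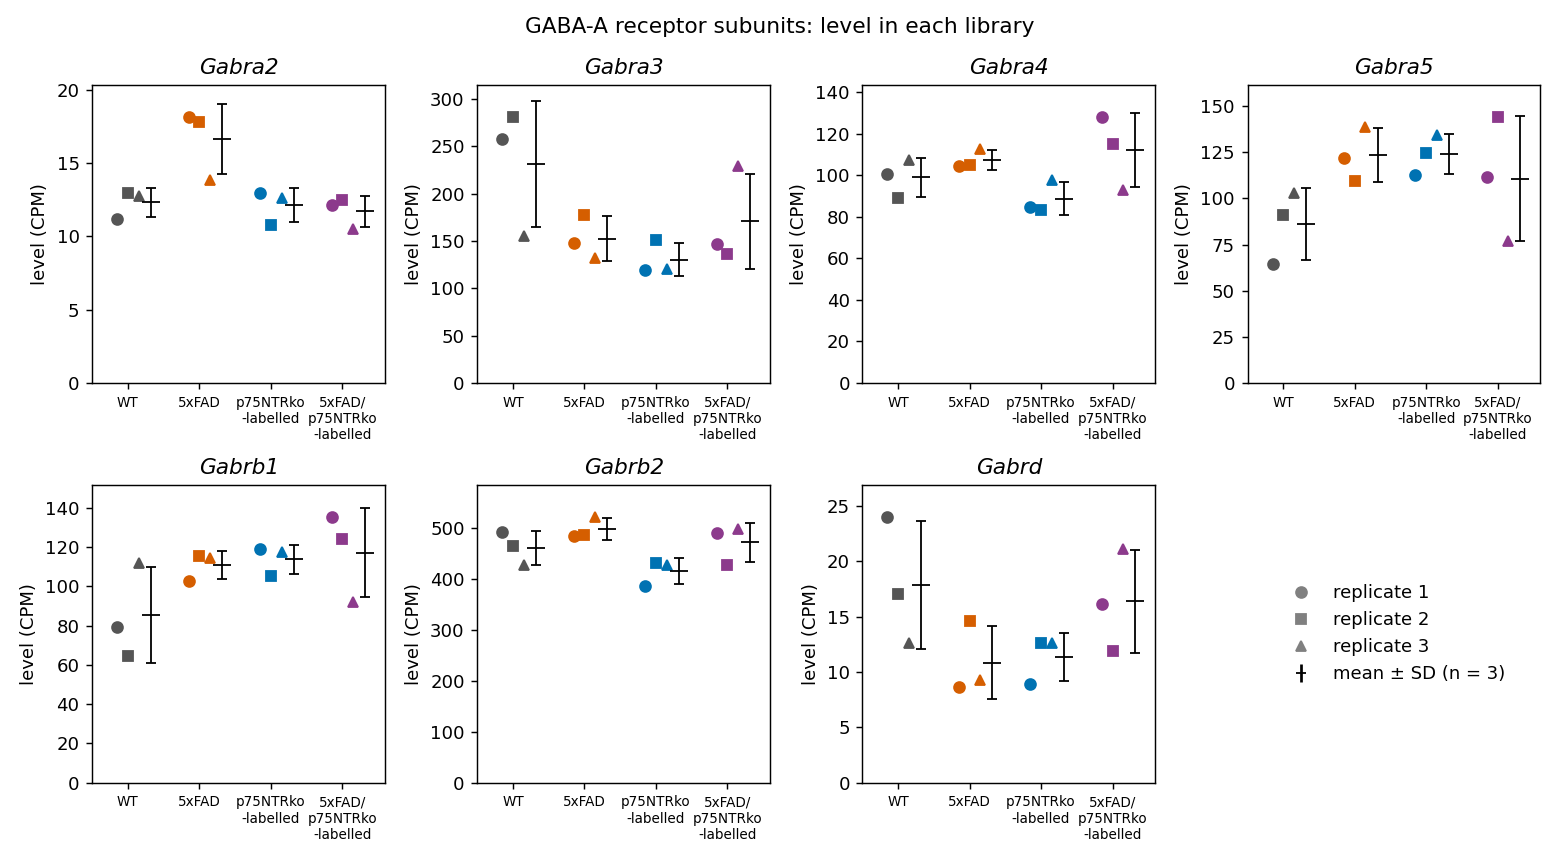
Level in CPM of each of the 7 genes in every library, grouped by genotype, with the genotype mean and SD (n = 3). For Gabra3, WT replicates 1 and 2 (257 and 281 CPM) and 5xFAD/p75NTRko-labelled replicate 3 (229 CPM) lie above all others, and for Gabra2 the 3 5xFAD libraries are highest.

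Gabrb2, the most abundant of the 7, overlapped WT in every other genotype. It was at 493, 465 and 427 CPM in WT, 485, 486 and 523 CPM in 5xFAD, then 386, 431 and 429 CPM in the p75NTRko-labelled group and 490.4, 429 and 499 CPM in the 5xFAD/p75NTRko-labelled group. The lowest library was p75NTRko-labelled and the highest was of 5xFAD. The means of 462 ± 33.2, 498 ± 21.7, 415 ± 25.5 and 473 ± 38.5 CPM (SD, n = 3) differed from WT by log2 fold changes of 0.11, -0.15 and 0.034, with SE of 0.0912 to 0.0914. Its lowest adjusted p against WT was 0.527, in p75NTRko-labelled libraries, by the quasi-likelihood test of edgeR (Benjamini-Hochberg). Leaving out the same 3 gave differences from WT of 0.22 (SE 0.109), -0.039 (SE 0.107) and 0.11 (SE 0.114).

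Gabrb1, the beta 1 subunit, is expressed in hippocampal neurons and in some glia. Levels were 79.5, 64.4 and 112 CPM in WT, 103, 116 and 114 CPM in 5xFAD, then 119, 105 and 117 CPM in the p75NTRko-labelled group and 136, 124 and 92.0 CPM in the 5xFAD/p75NTRko-labelled group. The 3 libraries with high neocortex and subiculum markers were again the lowest, at 64.4 to 92.0 CPM against 103 to 136 CPM in the other 9, and no genotype was separate from WT. Against WT the log2 fold change was 0.38 (SE 0.173) in 5xFAD, 0.42 (SE 0.173) in the p75NTRko-labelled group and 0.46 (SE 0.173) in the 5xFAD/p75NTRko-labelled group, with adjusted p of 0.354, 0.388 and 0.471 by the quasi-likelihood test of edgeR (Benjamini-Hochberg). Without the 3 libraries those values were -0.015, 0.025 and 0.21, each with an SE of 0.117 to 0.124.

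Gabrd encodes delta, which replaces gamma in the extrasynaptic receptors of granule and thalamic relay cells. It was at 24.1, 17.0 and 12.6 CPM in WT, 8.66, 14.6 and 9.26 CPM in 5xFAD, then 8.90, 12.6 and 12.6 CPM in the p75NTRko-labelled group and 16.2, 11.9 and 21.1 CPM in the 5xFAD/p75NTRko-labelled group, on 44 to 161 counts. The highest 3 were WT replicate 1, 5xFAD/p75NTRko-labelled replicate 3 and WT replicate 2, and the genotypes overlapped in each comparison. Log2 fold changes against WT were -0.73 (SE 0.277, adjusted p 0.303) in 5xFAD and -0.66 (SE 0.275, adjusted p 0.391) in p75NTRko-labelled libraries by the quasi-likelihood test of edgeR (Benjamini-Hochberg). In 5xFAD/p75NTRko-labelled libraries the log2 fold change was 0.60 (SE 0.280, adjusted p 0.970, edgeR) against 5xFAD and 0.53 (SE 0.278) against p75NTRko-labelled. The interaction, at 1.26 (SE 0.393, unadjusted p 0.00613, adjusted p 0.389, edgeR), was the largest in size among the 7 genes. Without the 3 libraries the differences from WT were -0.22 (SE 0.317) and -0.14 (SE 0.316), and the interaction 0.52 (SE 0.404). The log2 fold change of the 5xFAD/p75NTRko-labelled group was then 0.38 (SE 0.252) against 5xFAD and 0.31 (SE 0.250) against p75NTRko-labelled libraries. With the Xist class as a term in the fit to all libraries, the values were farther from 0: -1.23 in 5xFAD and -1.01 in p75NTRko-labelled against WT, 1.11 and 0.89 in the 5xFAD/p75NTRko-labelled group against 5xFAD and p75NTRko-labelled, and 2.12 for the interaction. The adjusted p of each was at least 0.816 by the same test of edgeR. The Xist term rests on p75NTRko-labelled replicate 1 against replicates 2 and 3, at 8.90 CPM of Gabrd against 12.6 and 12.6 CPM. The summed level of 16 thalamus and habenula markers was 681 to 957 CPM in WT, 436 to 527 CPM in 5xFAD, 413 to 428 CPM in the p75NTRko-labelled group and 378 to 1070 CPM in the 5xFAD/p75NTRko-labelled group. These sums were higher in all WT libraries than in all libraries of both single genotypes, whereas Gabrd in WT replicate 3 was within their range. Of these markers 14 of 16 passed the filter, and only Shox2 and Gpr151 were at 0 in a library, each in 1; their part in the Gabrd difference was not tested. The ratio of Gabrd to Gabra4 counts, partners in 1 receptor, was 0.239, 0.192 and 0.228 in WT replicates 1 and 2 and 5xFAD/p75NTRko-labelled replicate 3, and 0.0821 to 0.152 elsewhere.

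**Figure D4:**
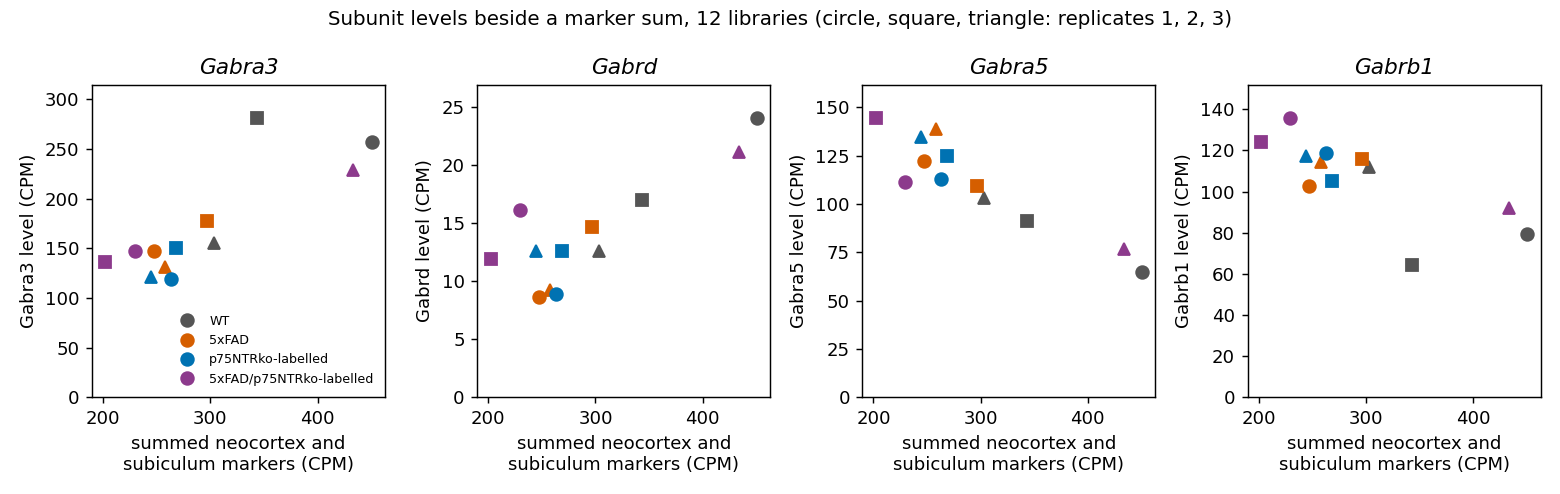
Level in CPM of Gabra3, Gabra5, Gabrb1 and Gabrd in each library against the summed CPM of 8 neocortex and subiculum markers, coloured by genotype. The libraries at 343, 433 and 451 CPM on the marker axis have the highest Gabra3 and Gabrd and the lowest Gabra5 and Gabrb1 values.

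For Gabra3, Gabra5, Gabrb1 and Gabrd, the 3 libraries with high neocortex and subiculum markers thus lay outside the range of the other 9. The share of all tested genes that separate these libraries in this way was not counted. Whether the separation is particular to these subunits is therefore not known. Across the 12 libraries, the Pearson correlation of log2 CPM was -0.84 for Gabra3 with Gabra5, -0.87 for Gabra3 with Gabrb1 and 0.81 for Gabra3 with Gabrd, while Gabra5 with Gabrb1 gave 0.68. With genotype means subtracted these were -0.74, -0.87, 0.78 and 0.50, and Gabra3 with Gabra4 went from -0.23 to -0.78, past Gabra3 with Gabra5. Gabra4 and Gabrb1, the neighbours that start head to head, had a correlation of 0.50, or 0.82 with genotype means subtracted. All these points share libraries, their depth and their tissue make-up, and the values are descriptions. In bulk tissue, fewer cells of a type and less RNA per cell cannot be told apart. In the 9 other libraries, of which WT gave 1, the coefficient of variation was 12.9% for Gabra3, 11.7% for Gabra5, 8.40% for Gabrb1, 9.62% for Gabrb2, 13.7% for Gabra4, 18.5% for Gabra2 and 21.7% for Gabrd.

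The genes with the most similar levels across libraries were sought among 9325 genes with a mean of at least 50 counts, by Pearson correlation of log2 CPM over the 12 libraries. Gabra5 was closest to Gria1, the GluA1 subunit of AMPA glutamate receptors (0.98), and to Wasf1, a regulator of actin assembly (0.97). Gabra3 was closest to Prkar1b, a regulatory subunit of protein kinase A, and Atp2b4, a plasma membrane calcium pump, at 0.95 each. Gabrb1 was closest to Col25a1, a membrane collagen, and Clstn2, a synaptic adhesion protein, at 0.95 each. Gabrd followed Polr2m (0.90) and the transcription factor Nr2f1 (0.89), and Gabra4 followed Osbpl9 (0.90) and March2 (0.88). The closest to Gabra2 were Nbeal1 and Ppig (0.89 each), and to Gabrb2 they were Srpk2 (0.89) and Gtf3c1 (0.88). Some of these places depended on the measure. By correlation of ranks (Spearman), Prkar1b was at place 118.5 for Gabra3, and at 65 by Pearson correlation with genotype means subtracted. With those means subtracted, Ppig was at place 84 for Gabra2, whereas Wasf1 was at place 2 for Gabra5 by either measure.

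Gabrg1 was not called in any comparison by the quasi-likelihood test of edgeR. It was at 36.5 ± 13.6 CPM (SD, n = 3) in WT, 45.1 ± 6.46 in 5xFAD, 38.3 ± 4.12 in the p75NTRko-labelled group and 41.8 ± 3.89 in the 5xFAD/p75NTRko-labelled group. Its largest difference from WT, in 5xFAD, was 0.31 on the log2 scale (SE 0.215, adjusted p 0.526, edgeR).

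Genes that place the receptor, supply its transmitter or set its chloride gradient gave no call in any comparison either. Of 21 anchoring and trafficking genes 20 were tested; the smallest p belonged to Clptm1, which holds unassembled subunits in the endoplasmic reticulum, with an interaction of 0.43 (SE 0.133, adjusted p 0.379) by the quasi-likelihood test of edgeR (Benjamini-Hochberg). Its level was 62.5 ± 4.52 CPM (SD, n = 3) in WT, 50.5 ± 1.83 in 5xFAD, 55.3 ± 1.99 in the p75NTRko-labelled group and 60.4 ± 2.25 in the 5xFAD/p75NTRko-labelled group. All 8 genes of GABA synthesis, release, uptake and breakdown were tested. Among them Slc32a1, which loads GABA into synaptic vesicles, was at 270.3 to 285 CPM in WT, 203 to 239 CPM in 5xFAD, 206 to 219 CPM in the p75NTRko-labelled group and 220.3 to 249 CPM in the 5xFAD/p75NTRko-labelled group. Each WT library was therefore above every library of the other genotypes. The share of all genes with WT above all other libraries was not counted. Between the p75NTRko-labelled group and WT alone, 8.50% of all genes were lower without overlap. In p75NTRko-labelled against WT its log2 fold change was -0.39 (SE 0.0872, unadjusted p 0.000468, adjusted p 0.171, edgeR). The summed striatum markers, a tissue made up mostly of GABA-releasing neurons, were also highest in the 3 WT libraries, at 111 to 121 CPM against 81.2 to 102 CPM in the others. In p75NTRko-labelled against WT, 6 of the tested striatum markers were fitted lower and 2 higher, Pde10a (0.23 on the log2 scale) and Rarb (0.0068). Of these 10 markers 8 passed the filter, and Drd2 and Gpr6 were at 0 counts in all 12 libraries; their part in the Slc32a1 difference was not tested. The summed level of 10 interneuron markers was 1044 to 1507 CPM in WT and 1172 to 1237 CPM in p75NTRko-labelled libraries, and these ranges overlapped. Of these markers 9 were fitted lower in p75NTRko-labelled libraries than in WT and 1 higher, Htr3a (0.64 on the log2 scale). Their median log2 fold change was -0.23, and 0 were called. Their part in the Slc32a1 difference was not tested either.

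Chloride transporters numbered 4, all tested. Slc12a2, which brings chloride into cells, had the smallest p, at -0.41 on the log2 scale (SE 0.133, adjusted p 0.679) in 5xFAD/p75NTRko-labelled against p75NTRko-labelled libraries by the quasi-likelihood test of edgeR (Benjamini-Hochberg). It was at 82.5 to 117 CPM in the former and 115 to 135 CPM in the latter, so the groups overlapped. The summed choroid plexus markers, of an epithelium rich in this transporter, ranged from 79.5 to 6444 CPM in the former and from 4004 to 6547 CPM in the latter group. All 15 passed the filter, and Slc4a5, Tmem72 and Kcne2 were at 0 in 5xFAD/p75NTRko-labelled replicate 2, Kcne2 also in replicate 3; their part was not tested. Of 5 GABA-B receptor genes 4 were tested, and the smallest p was that of Gabbr2, at 5 to 18 counts in each library, whose fold change in 5xFAD/p75NTRko-labelled against 5xFAD was -0.71 on the log2 scale (SE 0.439, adjusted p 0.980, edgeR). Of 5 glycine receptor genes 3 were tested; Glra1 had the smallest p, with an interaction of 3.24 (SE 1.06, adjusted p 0.408, edgeR) on 2 to 37 counts, of which 33 were in WT replicate 3 and 37 in 5xFAD/p75NTRko-labelled replicate 1.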

How the data were processed

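Hippocampal RNA of 12 libraries was measured, 3 for each of 4 genotypes grouped by the titles. Per the labels' protocols, Trizol-extracted RNA (integrity number over 7) went into QuantSeq 3′ forward libraries for Illumina sequencing. The submitters' processing notes name FastQC, HISAT2, SAMtools, HTSeq, edgeR and mm10; annotation and strand are not given in the sources used here. The deposited table holds raw counts per gene symbol; columns of other samples numbered 0. Its summary lines were left out of library sizes: reads outside any feature were 28.9% to 33.5% of each library, reads aligned to several places 9.57% to 12.1%, and reads assigned to genes 32.2% to 38.5%.

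The count model was that of edgeR 4.0.16 in R 4.3.3, with filterByExpr by genotype, TMM (factors 0.975 to 1.03), and a quasi-likelihood fit of a mean per genotype to all 12 libraries, with p-values of 13065 genes adjusted by Benjamini-Hochberg (threshold 0.05). CPM used TMM-scaled library sizes, log2 CPM a prior count of 2. The limit of measurement was 3 counts. The SE of a log2 fold change was derived from the quasi-likelihood test, so it includes the spread between libraries. The procedure was tested on simulated data. Libraries of 1 genotype differed by more than sampling noise, so none was counted as a repeat; p-values measure the spread between these libraries. The genes and lists were chosen with earlier results of these data known. Named genes were all 7 members, other subunits that passed the filter (some are not reported here), the gene of smallest p in each other list, and for each member the 2 genes of highest correlation. Alternatives included DESeq2 1.42.0, other scalings, filters and designs, a replicate block, an Xist term and leaving out libraries.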

Additional observations from a re-analysis of the deposited data

How the results depend on the processing

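With 44 to 161 counts for Gabrd and 47 to 107 for Gabra2, both rest on fewer counts than the other subunits, and with 3 libraries a genotype a single library can set a value. The number of the 7 genes past the threshold was 0 in every comparison under all alternatives tried, except p75NTRko-labelled against WT: there DESeq2 gave 1, and leaving out 1 library gave 0 to 1 (1 without WT replicate 3), each time Gabra3; over all genes, calls there went from 0 to 26 without WT replicate 3. Of 833 alternative values of 42 log2 fold changes, 801 kept their direction and side of the threshold, 30 reversed and 2 passed the threshold. The Xist term rests on the 3 p75NTRko-labelled libraries alone, the only group with both Xist classes. With the Xist class as a term, these reversed: Gabrb2 in 5xFAD against WT (-0.048), Gabra2 in p75NTRko-labelled against WT (0.076), Gabra5 (0.045), Gabrb1 (-0.013) and Gabrb2 (0.081) in 5xFAD/p75NTRko-labelled against 5xFAD, and Gabrb1 in 5xFAD/p75NTRko-labelled against p75NTRko-labelled (-0.021). With the 3 libraries of highest neocortex markers left out together, chosen after seeing the data, these reversed: Gabrb1 in 5xFAD against WT (-0.015), Gabra3 (-0.11) and Gabra5 (0.049) in 5xFAD/p75NTRko-labelled against 5xFAD, Gabra2 (0.012) and Gabra5 (0.040) against p75NTRko-labelled, Gabrd against WT (0.16), and the interactions of Gabrb1 (0.20) and Gabrb2 (-0.077). Leaving out each library in turn gave ranges that include 0 for Gabra2 in p75NTRko-labelled against WT (-0.080 to 0.056); for Gabra3 (-0.11 to 0.30), Gabra4 (-0.042 to 0.18), Gabra5 (-0.39 to 0.050) and Gabrb1 (-0.037 to 0.23) in 5xFAD/p75NTRko-labelled against 5xFAD; for Gabra2 (-0.13 to 0.014), Gabra5 (-0.40 to 0.042) and Gabrb1 (-0.083 to 0.19) against p75NTRko-labelled; and for Gabrb2 (-0.022 to 0.099) and Gabrd (-0.35 to 0.15) against WT. The cause was not tested. Over all genes, the count past the threshold in p75NTRko-labelled against WT went from 0 to 55 with DESeq2, and in 5xFAD against WT from 7 to 98. Same-numbered libraries did not deviate together: over 18 pairs the correlation was -0.42 to 0.14, over 0.1 in 2, and 2 of 12 libraries correlated best with their own number. With the replicate number as a block, 0 of the 7 genes passed in each comparison, and over all genes 1 did in 5xFAD against WT and 0 in p75NTRko-labelled against WT.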
